A study of Mus musculus with 9 samples.

Results

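The collagen genes of the mammary gland were compared between WT and hNAG-1 dams on lactation day 2 (L2). Members were all probes whose gene name on the array has the form Col, number, a, number. This rule gave 78 probes of 40 genes, out of 41174 probes of 27962 gene names on the array, and used no measured value. By protein class, 11 genes encode fibrillar collagens, 8 encode collagens of basement membranes and 21 fall in other classes. Of 45 collagen genes listed by class, 5 had no probe under this name rule. RNA came from mammary gland number 4 of 4 WT and 5 hNAG-1 dams, snap frozen after the 4th litter. All dams carried the strain label C57BL/7, and the labels give their age only as lactation day 2. The hNAG-1 dams carried a transgene for human NAG-1, also named GDF15, that is expressed ubiquitously and not in the gland alone. More than 1 transgenic line was kept in the study, and the labels do not name the line of each dam. Each dam gave 1 array, so replicates are separate animals.

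Collagens are secreted proteins of 3 chains wound into a triple helix, in which glycine recurs at a fixed short interval because no larger residue fits the helix axis. Type I and type III collagen form the fibrils of the stroma and are made mainly by fibroblasts. Type IV collagen forms the sheet-like network of the basement membrane, on which milk-secreting epithelium, myoepithelium, adipocytes and vessels rest. Its most common molecule joins the chains encoded by Col4a1 and Col4a2.

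The repeat that defines a collagen could be read directly in the array. Across all 41174 probes of the array, 3 had the bases GG, which begin every glycine codon, at steps of 9 bases along the whole 60-base probe with an open reading frame. All 3 were members. They are shown because they display the repeat itself, with the GG pairs at that step in capitals, 5′ to 3′, with mm7 coordinates from the array design. The printed 60 bases are spread over 167, 2424 and 730 bases of the genome, so that each probe joins separate exons.
Col11a2, A_52_P563285, chr17:32131401-32131567, plus strand: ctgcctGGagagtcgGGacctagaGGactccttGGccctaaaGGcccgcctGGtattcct
Col5a1, A_52_P237371, chr2:27994034-27996457, plus strand: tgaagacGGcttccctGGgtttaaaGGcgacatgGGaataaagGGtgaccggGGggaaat
Col5a3, A_52_P503796, chr9:20655471-20656200, minus strand: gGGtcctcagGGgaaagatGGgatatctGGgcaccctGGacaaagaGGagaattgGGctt

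Col4a1 and Col4a2 lie head to head in the mouse genome and are read in opposite directions. In the RefSeq windows of 250 bases before to 50 bases after each gene start, 32 of the 40 genes had 35 windows. The windows of Col4a1 and Col4a2 shared 78 bases, and no other pair of collagen windows on opposite strands overlapped. Opposite strands are not particular to this pair. By their probe coordinates Col4a3 and Col4a4 on chr1, and Col4a5 and Col4a6 on chrX, are also read in opposite directions. Over all genes, 10.8% of 32851 windows overlapped a window of another gene on the other strand. The Col4a1 window is shown because both genes are the members with higher signal at an unadjusted p under 0.05. It is on the minus strand at chr8:11312777-11313076 of GRCm38.p6, with the 78 bases shared with the Col4a2 window in capitals.
Col4a1 window: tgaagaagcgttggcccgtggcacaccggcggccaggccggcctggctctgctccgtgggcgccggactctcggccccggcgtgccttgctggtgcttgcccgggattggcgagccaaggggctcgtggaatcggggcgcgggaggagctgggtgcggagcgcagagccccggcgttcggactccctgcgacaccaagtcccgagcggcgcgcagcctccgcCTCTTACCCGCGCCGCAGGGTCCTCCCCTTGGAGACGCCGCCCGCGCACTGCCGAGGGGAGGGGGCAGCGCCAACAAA

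The windows were searched on both strands for 3 short promoter motifs. CCAAT occurred in 12 of 35 collagen windows and in 37.4% of all windows, and both the Col4a1 and the Col4a2 window held it. The GC-box core GGGCGG occurred in 20 of 35 collagen windows and in 35.7% of all windows, again in both of these. The TATA-box letters TATAAA occurred in 5 of 35 collagen windows and in 13.6% of all windows, and neither gene of this pair had them. These matches describe the letters of the windows only.

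Signals are given as scaled intensity, the background-subtracted brightness of a probe after each array was brought to a common 75th percentile of 797. Differences are log2 fold changes, hNAG-1 minus WT, from a limma fit over all probes. The brightness of different probes is not comparable as an amount of RNA. Of the 40 genes, 32 had a representative probe, the brightest of the gene, well above background on all 9 arrays, and 33 on every array of at least 1 genotype. Col12a1 and Col28a1 were not well above background on any array, and Col10a1, Col19a1, Col24a1, Col4a3 and Col8a2 were so on some arrays of each genotype. Arrays lay on 3 slides. WT 1 was on slide 1, hNAG-1 1 to 4 on slide 2, and WT 2 to 4 with hNAG-1 5 on slide 3, so that only slide 3 held both genotypes. Differences with slide as a fixed block therefore come from hNAG-1 5 alone against WT 2, 3 and 4. Between 59.8% and 76.1% of features were well above background, with the 3 lowest values on hNAG-1 2, 3 and 4. The tissue label was borne out by the secretory epithelium markers, all 7 of which were well above background on all arrays. Lymphocyte markers stood apart on WT 2, where the mean log2 signal of 8 genes was 11.4 against 7.03 to 9.24 on the other arrays.

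Across all 41174 probes, 1 passed an adjusted p of 0.05, which is 0.00243%, and 5.54% passed an unadjusted p of 0.05, with 1.19% higher in hNAG-1 and 4.34% lower. The count of 1 became 201 without hNAG-1 5 and 114 with slide as a fixed block. No collagen probe passed the adjusted threshold, for which the lowest adjusted p among the members was 0.657. At the unadjusted threshold 9 of 78 collagen probes passed. The 4 higher ones were both probes of Col4a1 and both probes of Col4a2. The 5 lower ones were probes of Col3a1, Col22a1, Col25a1, Col19a1 and Col6a3. This split changed with the processing, to 4 higher and 1 lower with normexp, 3 and 1 with quantile normalization, 5 and 0 with median scaling, 0 and 4 without scaling, 3 and 0 with a floor of 20, 4 and 0 with slide as a fixed block, and 1 and 13 with array weights. No collagen probe separated the genotypes without overlap, against 1.4% of all probes, 0.692% higher and 0.707% lower. By any amount 43 of 78 collagen probes were higher, against 48.2% of all probes. Results at the unadjusted threshold are therefore given with their values and are not calls after correction.

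The basement membrane class held the probes with higher signal. Col4a1 and Col4a2 encode the chains of the common type IV network. The 3′ Col4a1 probe A_51_P124254, at chr8:11167020-11167079 of mm7, read 4104, 2289, 3725 and 4125 on WT 1 to 4. It read 4760, 5969, 7002, 3762 and 4755 on hNAG-1 1 to 5. Of the 5 hNAG-1 arrays, 4 lay above every WT array, and hNAG-1 4 lay among the WT values. The log2 difference was 0.57 (SE 0.24, 95% interval 0.02 to 1.11), with limma adjusted p = 0.657. Unadjusted, limma gave p = 0.0443 and the exact two-sided permutation test over arrays p = 0.0317. The other Col4a1 probe, A_52_P518827, spans an intron at chr8:11167857-11169691 and read 1497, 1623, 2275 and 2758 on WT 1 to 4 and 2363, 3423, 4326, 2456 and 2972 on hNAG-1 1 to 5. Its log2 difference was 0.62 (SE 0.25, limma p = 0.0349, exact permutation p = 0.0556), and 3 hNAG-1 arrays lay above every WT array.

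Col4a2 had the same pair of highest arrays, hNAG-1 3 and hNAG-1 2. Probe A_51_P491350, at chr8:11416851-11416910, read 1786, 1777, 2566 and 3475 on WT 1 to 4 and 2509, 4581, 5584, 2844 and 3844 on hNAG-1 1 to 5. The genotypes overlapped, since hNAG-1 1 and hNAG-1 4 lay below WT 4. The log2 difference was 0.69 (SE 0.30, 95% interval 0.02 to 1.35), with limma p = 0.0455 and an exact permutation p = 0.0794. Probe A_52_P496142, with which it spans 720 bases, read 519, 679, 813 and 1092 on WT 1 to 4 and 789, 1772, 1989, 971 and 1342 on hNAG-1 1 to 5. Its log2 difference of 0.79 (SE 0.32) was the largest among collagen probes well above background on all arrays, with limma p = 0.0359 and an exact permutation p = 0.0794. On slide 3 alone, where 1 hNAG-1 array stood against 3 WT arrays, hNAG-1 5 was above WT 2, 3 and 4 for all 4 probes, with log2 differences of 0.45 to 0.67 and p of 0.139 or more. All 4 probes stayed higher under every alternative tried, but none kept an unadjusted p under 0.05 without WT 2, without hNAG-1 2, without hNAG-1 3, without hNAG-1 5, with slide as a fixed block, on slide 3 alone, or with no scaling between arrays. Of all 78 collagen probes, 45 had hNAG-1 5 above every WT array of slide 3, which held for 45.9% of all probes.

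**Figure D1:**
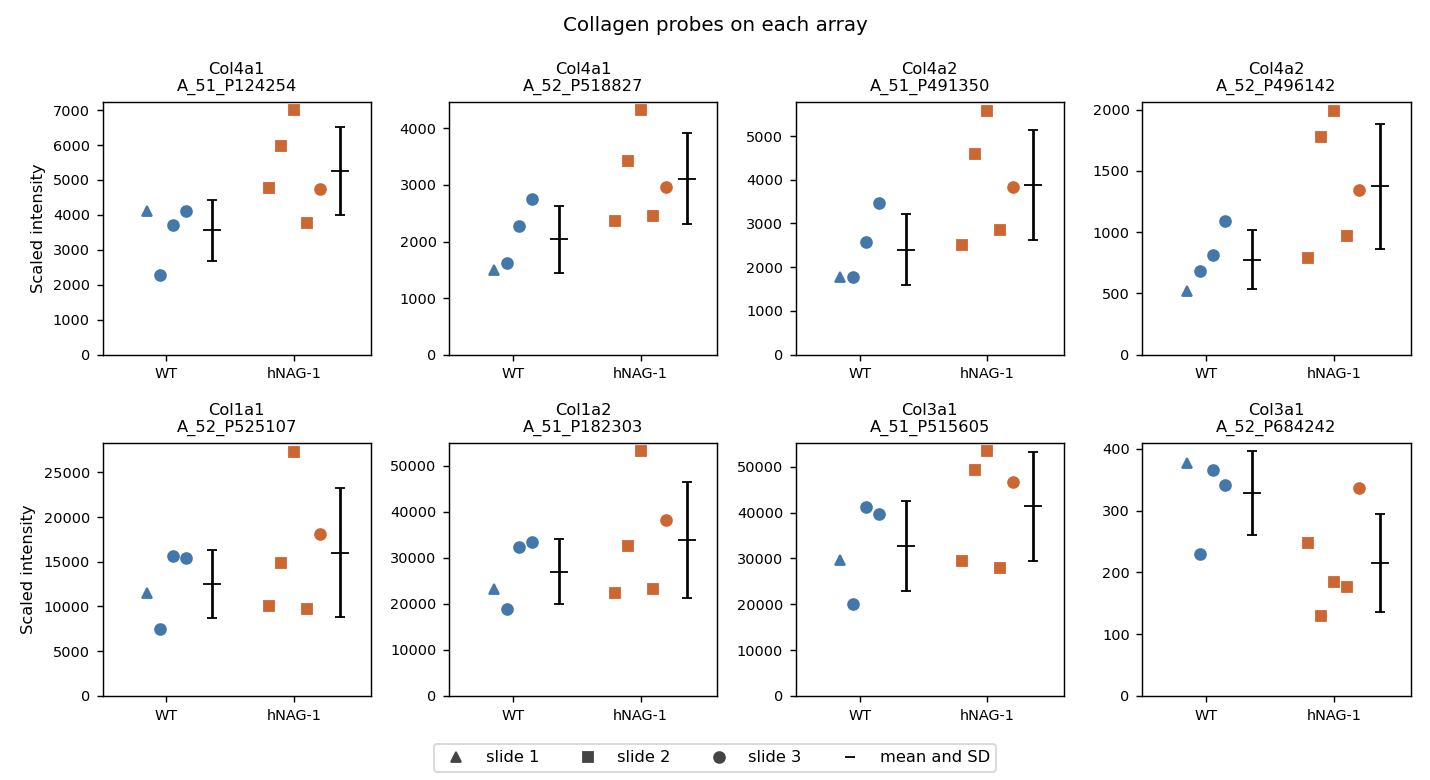
Scaled intensity (linear axis from 0) of 8 collagen probes on each of 4 WT and 5 hNAG-1 arrays, with marker shape for the slide and the mean ± SD beside each group. Both probes of Col4a1 and Col4a2 had 3 or 4 of 5 hNAG-1 arrays above every WT array, while the 5′ probe of Col3a1 (A_52_P684242) ran lower in hNAG-1 and the 3′ probe higher.

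The other genes of the class did not pass the unadjusted threshold. Col18a1, whose protein releases endostatin, read 1682 to 3118 on the WT arrays and 2314 to 4136 on the hNAG-1 arrays, with a log2 difference of 0.35 (SE 0.23). Col15a1, a related multiplexin, differed by 0.10 (SE 0.26). Col4a4 and Col4a6, which encode chains of other type IV molecules, both differed by 0.09 (SE 0.16 and 0.26). Col4a5 read 117, 89.9, 155 and 172 on WT 1 to 4 and 109, 127, 149, 93.9 and 164 on hNAG-1 1 to 5, with every hNAG-1 value inside the WT range. Its difference was the lowest among the measured genes of the class, -0.04 (SE 0.24, limma adjusted p = 0.965), and its sign turned positive with normexp, quantile and median scaling. Col4a3, measured on 3 of 9 arrays, differed by -0.59 (SE 0.39, limma adjusted p = 0.657) and by -0.05 after normexp. Its 2 other probes were well above background on 0 and 1 of the 9 arrays, so no fold is given for them. The class median over 8 genes was 0.09, with 6 genes higher and 2 lower. Over the brightest probes of all 27962 gene names the median was -0.02 and 47.3% were higher, and 1.06% were higher at an unadjusted p under 0.05, against 2 of 8 genes here. Without scaling the class median was -0.06, where the median of those gene names was -0.17.

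The fibrillar class had the highest class median, 0.25 over 11 genes, with 9 higher and 2 lower, and none passed the unadjusted threshold. With the mean over a gene's probes in place of the brightest it was the lowest, at -0.15 against 0.04 for basement membrane and 0.05 for other collagens, and without WT 2 or hNAG-1 3 it fell to 0.08 and 0.10. Col1a1 and Col1a2 encode the chains of type I collagen and Col3a1 that of type III. Col1a1 (A_52_P525107, chr11:95060800-95060859) read 11526, 7470, 15612 and 15369 on WT 1 to 4 and 10100, 14847, 27276, 9720 and 18152 on hNAG-1 1 to 5. The genotypes overlapped widely, with WT 2 lowest and hNAG-1 3 highest. The log2 difference was 0.31 (SE 0.35, 95% interval -0.48 to 1.10, limma adjusted p = 0.769), which is within the spread between dams.

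Col1a2 (A_51_P182303, chr6:4493505-4493564) read 23119, 18914, 32404 and 33440 on WT 1 to 4 and 22271, 32584, 53161, 23230 and 38117 on hNAG-1 1 to 5. It had the same lowest and highest arrays as Col1a1 and a log2 difference of 0.29 (SE 0.30, limma adjusted p = 0.738). Col3a1 at its 3′ probe (A_51_P515605, chr1:45585395-45585454) read 29565, 20159, 41300 and 39638 on WT 1 to 4 and 29554, 49251, 53536, 27830 and 46625 on hNAG-1 1 to 5. Here too WT 2 was lowest and hNAG-1 3 highest, and the log2 difference was 0.34 (SE 0.29, limma adjusted p = 0.681). The 95% intervals of all 3 genes held 0 and reached from -0.48 at the lowest to 1.10 at the highest.

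Among the minor fibrillar collagens, Col5a1 had the largest rise of the class at its helix probe shown above. The probe read 7719, 4421, 4559 and 4392 on WT 1 to 4 and 16770, 7013, 4495, 10930 and 5242 on hNAG-1 1 to 5, a log2 difference of 0.62 (SE 0.39, limma adjusted p = 0.657). Its highest values were on hNAG-1 1, hNAG-1 4 and WT 1. The 3′ Col5a1 probe (A_51_P414637) read 1348 and 1024 on hNAG-1 1 and 4 and 2959 on hNAG-1 3, so both probes of this gene ordered the arrays differently. That probe differed by 0.20 (SE 0.32) and had its highest value on hNAG-1 3, as Col1a1 did. Col5a2, which shares type V molecules with Col5a1, differed by 0.41 (SE 0.27, limma adjusted p = 0.657) and Col5a3 by 0.25 (SE 0.37). Col11a2 (A_51_P264666) read 343, 241, 242 and 263 on WT 1 to 4 and 321, 217, 190, 267 and 266 on hNAG-1 1 to 5. It was the measured fibrillar gene with the lowest difference, -0.12 (SE 0.19, limma adjusted p = 0.84), and its sign turned positive with median scaling. The helix probes of Col11a2 and Col5a3 were dim, with WT means of 56.4 ± 0.674 and 51.0 ± 5.27 (SD, n = 4) and hNAG-1 means of 50.1 ± 28.1 and 41.5 ± 27.7 (SD, n = 5).

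Of the other classes, the beaded-filament collagens were all higher by amounts within the spread. Col6a1, a chain of type VI collagen, had the largest rise among the measured genes of these classes. It read 545, 901, 1167 and 1352 on WT 1 to 4 and 828.8, 1781, 1743, 887 and 1366 on hNAG-1 1 to 5, a log2 difference of 0.42 (SE 0.34, limma adjusted p = 0.667). Its partner chains Col6a2 and Col6a3 differed by 0.16 (SE 0.32) and 0.22 (SE 0.29). Transmembrane collagens went both ways, with Col13a1 at 0.40 (SE 0.25) and Col17a1, of the hemidesmosome, at 0.24 (SE 0.26), but Col23a1 at -0.12 (SE 0.19). Other Col23a1 probes, A_52_P431116 and A_51_P457557, differed by -0.81 (SE 0.44) and -1.27 (SE 0.65), and both by -0.26 after normexp. They were well above background on 4 of 4 and 3 of 4 WT arrays, and on 4 of 5 and 1 of 5 hNAG-1 arrays. The fibril-associated collagens Col14a1 and Col9a1 differed by 0.15 (SE 0.33) and 0.07 (SE 0.29), and the anchoring-fibril collagen Col7a1 by 0.09 (SE 0.32). Over 21 genes the median was 0.07, with 12 higher and 9 lower, and without scaling it was -0.08.

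Lower signal at the unadjusted threshold lay in dim probes of these classes and in 1 Col3a1 probe. Col25a1, a transmembrane collagen known from amyloid plaques and motor innervation, read 79.0, 53.8, 55.8 and 53.9 on WT 1 to 4 and 58.1, 33.0, 29.6, 34.2 and 55.3 on hNAG-1 1 to 5. The lower hNAG-1 values were those of hNAG-1 2, 3 and 4, and the log2 difference was -0.57 (SE 0.25, limma p = 0.0497, exact permutation p = 0.111). Col22a1, a fibril-associated collagen of tissue junctions, read 49.6, 73.8, 59.9 and 67.7 on WT 1 to 4 at probe A_52_P434306 and 44.5, 24.5, 32.6, 18.3 and 73.3 on hNAG-1 1 to 5. Its log2 difference was -0.86 (SE 0.37, limma p = 0.0458, exact permutation p = 0.0794), and 3 of 5 hNAG-1 arrays were well above background. After normexp the differences of Col25a1 and this Col22a1 probe were -0.11 and -0.18. A probe of Col19a1 (A_52_P220271) also passed at -0.97, with 4 of the 9 arrays well above background, and differed by -0.11 after normexp. A probe of Col6a3 (A_52_P675592) also passed and was well above background on 0 of the 9 arrays, so no fold is given. None of the differences of Col22a1, Col25a1 and this Col3a1 probe was negative on slide 3 alone, where they were 0.13, 0.02 and 0.13. That of the Col19a1 probe stayed negative there, at -0.42, as did that of the Col6a3 probe, for which no fold is given.

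**Figure D2:**
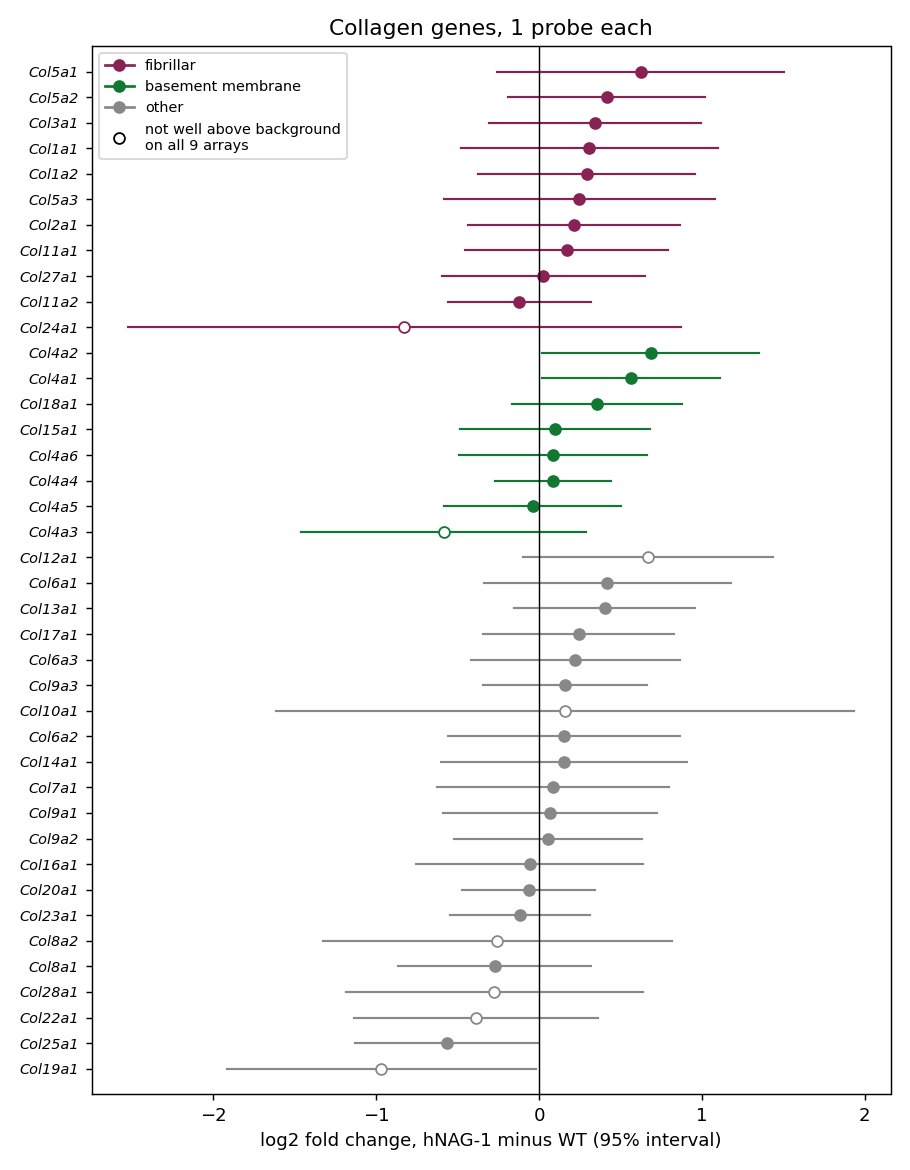
Log2 fold change of hNAG-1 minus WT with its 95% interval for the representative probe of each of 40 collagen genes, ordered within class, with open points for genes not well above background on all 9 arrays. Points of 27 genes lie to the right of 0, and the intervals of Col4a1 and Col4a2 on that side are the ones that leave out 0.

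Without slide in the fit, bright collagen probes were mostly higher in hNAG-1 and dim ones mostly lower. Of 23 collagen probes with a mean scaled intensity over 1000, 22 were higher in hNAG-1, with a median log2 difference of 0.29. Of all probes that bright, 68.3% were higher, with a median of 0.07. Without WT 2 these counts were 17 of 23 with a median of 0.10, beside 50.9% of all such probes, and without hNAG-1 3 they were 19 of 23 and 0.14, beside 67.8%. Of 39 collagen probes under 100, 12 were higher, with a median of -0.28, against 41.0% and -0.13 of all probes that dim. The 43 collagen probes well above background on all 9 arrays had a median of 0.16 with 33 higher, where 52.4% of all such probes were higher. In the 35 others the median was -0.34, and it was 0.03 after normexp background correction. With slide as a block, 69 of 78 probes were higher with a median of 0.36, beside 28261 of 41174 and 0.19 for all probes. The dim probes were then higher too, 31 of the 39 under 100 with a median of 0.39, beside 0.37 for all probes that dim, and 22 of the 23 over 1000 with a median of 0.45, beside 0.12. The 35 probes not measured on all arrays had a median of 0.53 in that fit, beside 0.39 for all such probes. The part of brightness in these differences was not tested.

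**Figure D3:**
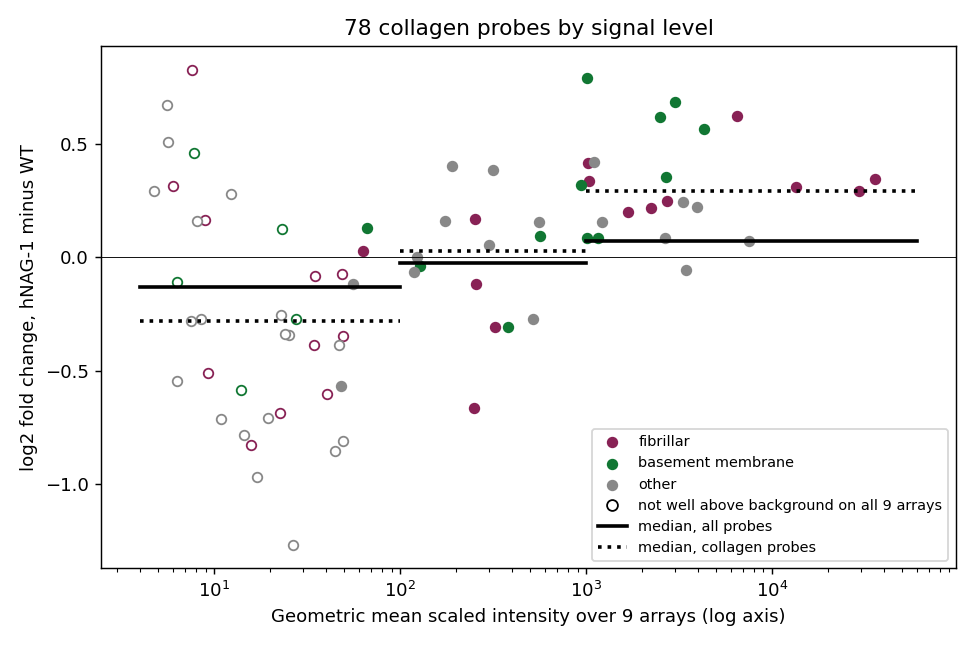
Log2 fold change of each of 78 collagen probes against its geometric mean scaled intensity over 9 arrays (log axis), colored by class, with medians of collagen probes (dotted) and all probes (solid) in 3 ranges. Probes over 1000 lie above 0 in 22 of 23 cases, and the median under 100 is -0.28.

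How firmly the counts stood depended on single dams. Without WT 2, 25 of the 43 measured collagen probes were higher in hNAG-1, beside 45.3% of all such probes, and the class medians were 0.08 fibrillar, 0.04 basement membrane and -0.17 other. Without hNAG-1 3, 28 were higher, and without WT 4, 36. In all 3 classes WT 2 had the lowest median deviation from the mean of 9 arrays, -0.63 fibrillar, -0.59 basement membrane and -0.46 other, and hNAG-1 3 the highest, 0.47, 0.43 and 0.34. Among the 32 genes measured on all arrays, WT 2 was lowest in 18 and hNAG-1 3 highest in 16. The 3 classes thus ran together from dam to dam, and the range of these class values within either genotype was wider than the class median differences between genotypes. WT 2 was also the array with the highest lymphocyte signal, and the part of that signal in its collagen values was not tested. In whole glands, fewer cells of a type and less RNA per cell cannot be told apart.

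**Figure D4:**
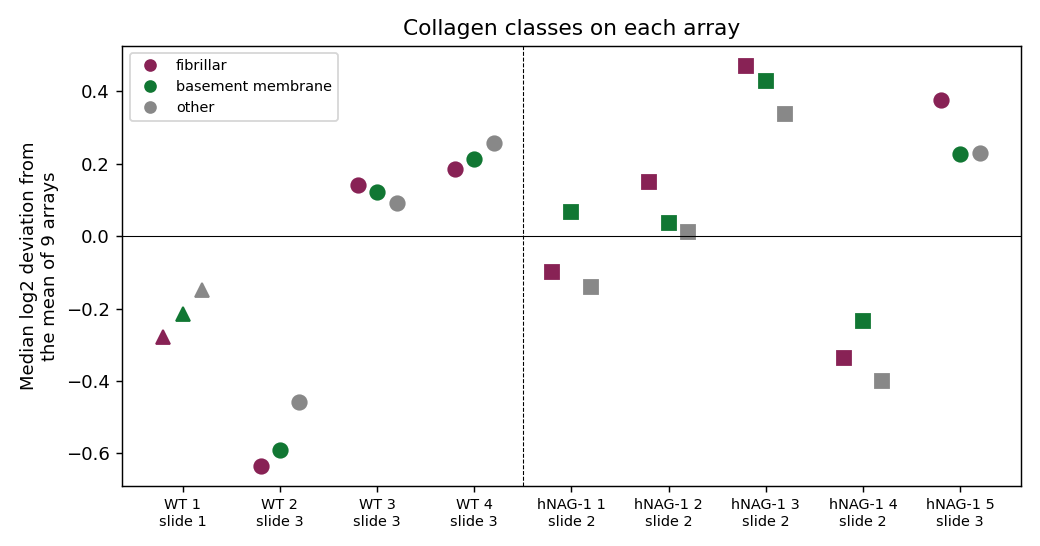
Median log2 deviation of the genes of each collagen class from their mean over 9 arrays, for each array, with marker shape for the slide. All classes are lowest on WT 2 and highest on hNAG-1 3, and arrays of both genotypes lie on either side of 0.

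Relations across the 9 dams were computed for 4 pairs of collagen genes. Col1a1 and Col1a2 correlated with Pearson r = 0.989 (permutation p = 5.79e-05, adjusted 0.000231) and Spearman rho = 0.90 (permutation p = 0.00203, adjusted 0.00406). Without WT 2 and hNAG-1 3, the arrays farthest from the median, r was 0.975. Col1a1 and Col3a1 gave r = 0.937 (permutation p = 0.000344, adjusted 0.000689), rho = 0.90 (permutation p = 0.00203, adjusted 0.00406) and r = 0.919 without those arrays. Col4a1 and Col4a2 gave r = 0.823 (permutation p = 0.00519, adjusted 0.00693), rho = 0.75 (permutation p = 0.0255, adjusted 0.0340) and r = 0.623 without them. Across classes, Col4a1 and Col1a1 gave r = 0.787 (permutation p = 0.0150, adjusted 0.0150) and rho = 0.533 (permutation p = 0.148, adjusted 0.148), and r fell to 0.245, so that this relation rests on WT 2 and hNAG-1 3. With genotype means removed, r was 0.988, 0.934, 0.699 and 0.823 in that order. Slides held 1, 4 and 4 arrays, and no correlation was computed within a slide because a minimum of 6 arrays was kept.

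Probes of one gene did not always move alike. In 28 genes with more than 1 probe, the most downstream probe in mm7 was well above background on all arrays in 20 genes and the most upstream one in 11. The median difference was 0.16 downstream and -0.04 upstream, or 0.15 and 0.08 after normexp. In 11 genes the 2 probes had opposite signs, and in 8 of these the downstream one was higher in hNAG-1. Both probes were measured on all arrays in 8 genes, of which 2, Col3a1 and Col4a6, had opposite signs. Col2a1 was not among these 8, since its most upstream probe was well above background on 0 arrays. Its probes A_51_P317141 and A_52_P216436, with starts at 97979237 and 97979257, were measured on all arrays. Their log2 differences also had opposite signs, 0.21 and -0.31, or 0.54 and 0.16 with slide as a block. With slide as a block 5 of the 28 genes had opposite signs, among them Col4a6 at 0.06 upstream and -0.08 downstream. Of the 8 genes with a higher downstream and a lower upstream probe, only Col6a3 kept that order of signs. The upstream Col6a3 probe was well above background on 0 of 9 arrays. The medians in that fit were 0.38 downstream and 0.42 upstream. Col3a1 was the gene with the widest gap among those with both probes measured on all arrays. Its upstream probe A_52_P684242, at chr1:45558167-45558226, read 377, 230, 365 and 341 on WT 1 to 4 and 248, 129, 184, 176 and 336 on hNAG-1 1 to 5. The lowest 3 values were those of hNAG-1 2, 3 and 4, and hNAG-1 5, the array on slide 3, lay among the WT values. The log2 difference was -0.66 (SE 0.29, limma p = 0.0445, exact permutation p = 0.0635), against 0.34 at the 3′ probe, both spanning 27288 bases of mm7. With slide as a block both Col3a1 probes were positive, 0.13 upstream and 0.54 downstream. Among the other genes with both probes measured on all arrays, those of Col4a1, Col4a2, Col17a1 and Col18a1 differed by 0.14 or less, those of Col6a2 by 0.16 and those of Col5a1 by -0.43, while Col4a6 had opposite signs at -0.31 upstream and 0.09 downstream.

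**Figure D5:**
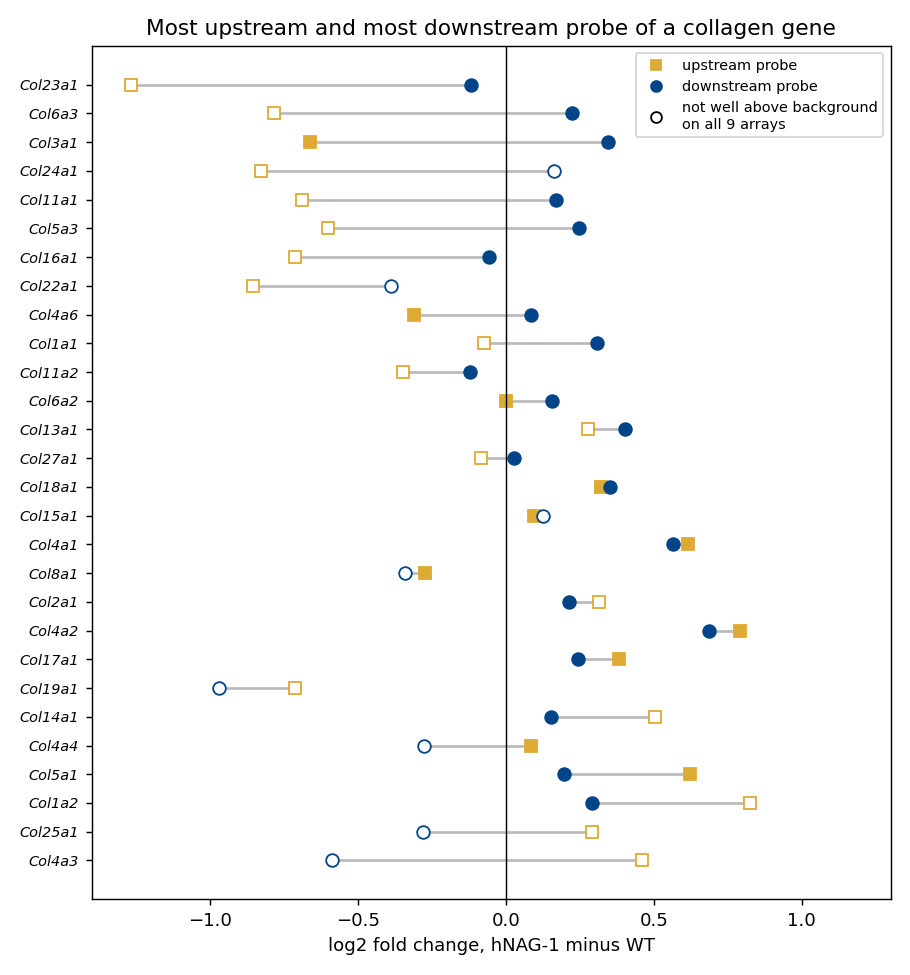
Log2 fold change of the most upstream (squares) and most downstream (circles) probe of 28 collagen genes, joined by a line, with open symbols for probes not well above background on all 9 arrays. The signs are opposite in 11 genes, and in Col3a1 the upstream probe is at -0.66 and the downstream probe at 0.34.

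Genes that act on collagen were taken from lists of their own. The modification and processing list covers hydroxylases, chaperones, propeptide proteases and cross-linking enzymes, and 28 of 29 genes were matched. Of these 23 were higher and 5 lower, with a median of 0.13 (17 higher and 0.065 without WT 2), and 1 passed the unadjusted threshold. This was P4ha3, a prolyl hydroxylase subunit, which was lower but well above background on 2 of 4 WT and 0 of 5 hNAG-1 arrays, so no fold is given. Lox, the lysyl oxidase that cross-links fibrils, had the largest rise among measured genes. It read 144, 181, 248 and 348 on WT 1 to 4 and 314, 261, 379, 298 and 296 on hNAG-1 1 to 5, a log2 difference of 0.50 (SE 0.25, limma adjusted p = 0.657). Its relative Loxl3 was the lowest measured gene at -0.26 (SE 0.29), and Serpinh1, the collagen chaperone, differed by 0.22 (SE 0.17).

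Basement membrane partners were matched in 15 of 16 genes, with 12 higher, 3 lower and a median of 0.17. None passed the unadjusted threshold. Without WT 2, 7 of 15 were higher with a median of -4.5e-05, and with array weights 6 of 15 with a median of -0.04. The laminin chain Lama2 differed by 0.52 (SE 0.29, limma adjusted p = 0.657), but by -0.13 with the mean over its 3 probes. Lamc3 differed by -0.43 (SE 0.23, limma adjusted p = 0.657), and by 0.06 with the mean over its probes. Lamc1, the common gamma chain, and Nid1, which links laminin to type IV collagen, differed by 0.35 (SE 0.23) and 0.20 (SE 0.27). Interstitial matrix partners were matched in 20 of 20 genes, with 15 higher, 5 lower and a median of 0.12, and none passed. Without WT 1, 11 of these 20 were higher with a median of 0.022, without hNAG-1 3, 12 with a median of 0.061, and with array weights 9 with a median of -0.03. Without scaling the medians of this list and of the modification list were -0.03 and -0.02, where that of all probes was -0.16. Eln, which encodes elastin, differed by 0.52 (SE 0.25, limma adjusted p = 0.657) and Thbs2 by -0.26 (SE 0.30). Decorin (Dcn), which binds type I fibrils, differed by 0.06 (SE 0.24). Of 7 collagen receptor genes 3 were higher and 4 lower, with a median of -0.10 (0.14 with slide as a block), and none passed. Ddr1, a receptor tyrosine kinase for collagen, differed by 0.24 (SE 0.28) and the integrin chain Itga10 by -1.37 (SE 0.81, limma adjusted p = 0.657), for which the WT 1 spot was left out as an outlier and 3 of 5 hNAG-1 arrays were well above background. After normexp the Itga10 difference was -0.44. On slide 3 alone the Itga10 difference was 0.84, while Loxl3 and Lamc3 turned to 0.41 and 0.09.

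Markers of the cell types in the gland are given beside the collagens, and their part in the collagen values was not tested. All 42 matched marker genes had signal well above background on at least 8 of 9 arrays. Fibroblast markers had a median difference of 0.14 with 5 of 8 higher, or -0.06 with 4 of 8 higher with slide as a block and -0.06 with 2 of 8 higher without WT 1, and their summed signal was 17499 to 33878 in WT and 14499 to 24661 in hNAG-1. Adipocyte markers were higher in 7 of 7 genes (median 0.45, sums 388340 to 700269 in WT and 521256 to 659240 in hNAG-1), with a median of 0.16 with slide as a block. Without WT 1, whose mean log2 signal of these genes was 12.5 against 13.3 to 14.1 on the other arrays, their median was 0.09. Secretory epithelium markers were higher in 7 of 7 (median 0.13), in 4 of 7 with slide as a block, and in 1 of 7 without WT 2. Myoepithelium markers were higher in 6 of 6 (median 0.35, sums 77337 to 162772 in WT and 141041 to 177001 in hNAG-1). Their median was 0.14 without WT 2 and 0.25 with slide as a block. Of these, Myh11, smooth muscle myosin, passed the unadjusted threshold at 0.48 (SE 0.16, limma p = 0.0145, exact permutation p = 0.0238). Endothelium markers were higher in 6 of 6 (median 0.23), but in 1 of 6 with slide as a block (median -0.18). Lymphocyte markers were lower in 8 of 8 (median -1.26), with sums of 1907 to 66699 in WT and 1484 to 9531 in hNAG-1. Without WT 2 they were still lower in 8 of 8, but with a median of -0.35.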

How the data were processed

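1-color Agilent arrays measured the RNA of 1 gland each from 4 WT and 5 hNAG-1 dams. The authors deposited each array's scanner output as intensity per feature, background-subtracted by Feature Extraction version 9.5.3.1 and not scaled between arrays. The deposited series table held the same intensities, with a largest difference of 0. The methods name no normalization. They use an analysis of variance at p of 0.05 and stricter criteria, a 1.5-fold change with a signal of 65.

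Control features and outlier spots were left out here. Intensities of an array were divided by their 75th percentile, log2 was taken and replicate spots were averaged. Genotypes were compared with limma version 3.58.1 (R version 4.3.3, lmFit and eBayes, two-sided, no covariates, 7 residual degrees of freedom), adjusted by Benjamini-Hochberg over 41174 probes. Exact permutation tests used 126 splits, with a smallest possible p of 0.00794. A gene's brightest probe represented it. Depth does not apply to arrays, and their number limits the precision. The lowest signal well above background was 14.4 to 31.8.

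In simulated data with 200 changed probes among 41174, 58% of 1.5-fold changes passed an unadjusted p of 0.05 and 0% the adjusted one. For 2-fold changes the shares were 79.5% and 5%, and for 4-fold changes 96.5% and 66%. Of unchanged probes 5.08%, 4.94% and 5.24% passed without adjustment. The simulated probes varied independently, with no effect of slide or dam, so these shares need not hold for the real arrays.

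Members and lists were chosen with earlier results of these data known. Values on each array were given for Col1a1, Col1a2, Col3a1, Col4a1 and Col4a2, for collagen probes measured on every array of a genotype with an unadjusted p under 0.05, and for the largest rise and fall per class. In the other lists, genes passing the threshold and the largest change each way were named, with further examples by their role. Listed genes were matched by name or RefSeq accession in 112 of 114 cases, with Adamts14 and Hspg2 unmatched. Promoter windows were those of RefSeq for GRCm38.p6, and probe coordinates those of the array design in mm7. Alternatives were other background corrections and scalings, a floor of 20, spots and dim probes kept or left out, slide as a block, slide 3 alone, array weights, the methods' t-test and criteria, the mean over probes, each dam left out in turn and a replicate block. Their effect on the count of measured collagen probes higher in hNAG-1 was added after seeing the data. Protein sequences were not used here.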

Additional observations from a re-analysis of the deposited data

Results flagged for a closer look

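Among 43 groups of 4 or 5 arrays tested for 1 array far from the rest, 2 had a gap beyond the 95% critical value of Dixon's ratio, and chance gives about 1 in 20. In WT, Col25a1 (A_51_P333929) on WT 1 read 79.0 with a ratio of 0.902, and Col5a1 (A_52_P237371) on WT 1 read 7719 with a ratio of 0.934, where the critical value for 4 arrays is 0.829. WT 1 was the only array of its slide.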

How the results depend on the processing

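No collagen probe passed an adjusted p of 0.05 under any alternative run, while the 1 of all probes that passed became 201 without hNAG-1 5 and 114 with slide as a fixed block. The 9 collagen probes at an unadjusted p under 0.05 became 5 with normexp, 4 with quantile normalization, 5 with median scaling, 4 without scaling, 3 with a floor of 20, 4 with slide as a fixed block, 2 with slide as a random block, 14 with array weights, 1 with the methods' t-test and 5 with the methods' fold and intensity criteria. Leaving out 1 dam gave 0 to 11, with 2 without WT 1, WT 2 or hNAG-1 3, 1 without WT 3, 5 without WT 4, 0 without hNAG-1 2 and 4 without hNAG-1 4. Among all probes 2281 became 1055 with normexp, 3609 with median scaling, 1503 with slide as a random block, 3696 on slide 3 alone, 6198 with array weights and 890 with those criteria, and 1156 to 5886 without 1 dam (1156 without hNAG-1 2, 1502 without hNAG-1 3, 5886 without hNAG-1 5). The share higher in hNAG-1 among them was 21.6%, 54.4% with normexp, 57.8% with quantile normalization, 71.9% with median scaling, 2.91% without scaling and 90.4% with slide as a fixed block. Median scaling moved the median of all probes from -0.01 to 0.20 and no scaling to -0.16. The 43 collagen probes measured on all arrays were higher in 33, in 25 to 36 without 1 dam, in 24 without scaling and in 21 with array weights, where WT 2 and hNAG-1 5 had the lowest weights, 0.423 and 0.439. The cause of these moves was not tested.

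Of 528 results of named probes under alternatives, 395 kept direction and side of the threshold, 88 kept direction but missed it, 16 newly passed it and 29 changed sign. A fit with slide as a fixed block and a fit of slide 3 alone gave these probes equal differences, because only that slide held both genotypes. Their p-values were not equal. In both, the signs turned for Col22a1 (0.13), Col25a1 (0.022), Col3a1 at A_52_P684242 (0.13), Col11a2 (0.096), Col4a5 (0.29), Loxl3 (0.41), Lamc3 (0.094), Itga10 (0.84) and Ddr1 (-0.0014). Col11a2 turned to 0.090 with median scaling. Col4a5 turned to 0.047 with normexp, 0.12 with quantile normalization, 0.17 with median scaling, and 0.047, 0.096, 0.013 and 0.066 without WT 3, WT 4, hNAG-1 1 and hNAG-1 4. With the mean over a gene's probes the fibrillar median was -0.15, Col3a1 -0.28, Lamc3 0.061 and Lama2 -0.13.

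Replicate numbers are labels of the arrays, and the labels state no pairing. Deviations of arrays with numbers 1 to 4 correlated at 0.27, -0.21, -0.14 and -0.32 between genotypes. These values cannot decide whether dams were paired, because arrays of unlike numbers were not correlated for reference. A replicate block over those numbers leaves out hNAG-1 5, and 5393 of all probes then passed the unadjusted threshold, beside 5886 without hNAG-1 5 and without the block.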
